A study of Macaca mulatta with 12 samples.

Results

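Serotonin released in the brain is cleared and recycled by a small set of proteins. Their transcripts were measured here in female rhesus macaques, in the dorsal raphe, a midbrain cell group rich in serotonin neurons that project to the forebrain. The 4 genes are SLC6A4, the serotonin transporter of the plasma membrane, SLC18A2, the transporter that loads monoamines into vesicles (also called VMAT2), and MAOA and MAOB, the monoamine oxidases. Members were all probe sets whose only gene symbol in the platform's probe table was one of these genes. That rule gave 6 of the 12625 probe sets on the array, namely 1 for SLC6A4, 1 for SLC18A2, 3 for MAOA and 1 for MAOB, and 0 probe sets joined a member to another symbol. Of the 6, 5 were bright enough to be tested, and 1 MAOA probe set was not.

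Each array held RNA of 1 monkey, with 3 monkeys in each of 4 groups: estrogen plus progesterone (both hormones), estrogen alone, progesterone alone, and placebo. Silastic capsules, which release crystalline steroid through silicone tubing, lay under the skin for 1 month before the tissue was taken. The placebo titles carry OVX, the usual short form of ovariectomized. The surgical state of the hormone groups, the steroid doses and the ages are not in the labels. Macaque RNA was hybridized to a human Affymetrix array, and intensity therefore follows the match of the human probes to the macaque transcript as well as its amount. Levels are therefore compared between arrays for 1 probe set at a time, never between probe sets. The tissue was taken as a whole, so fewer cells of a type and less RNA per cell cannot be told apart.

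SLC6A4 sits on serotonin axons and cell bodies, takes released serotonin back into the neuron, and is the target of the selective serotonin reuptake inhibitors. SLC18A2 uses a proton gradient to fill synaptic vesicles and serves serotonin, dopamine and noradrenaline neurons alike. MAOA and MAOB are flavin enzymes of the outer mitochondrial membrane that oxidise cytosolic monoamines. MAOA prefers serotonin and noradrenaline, MAOB prefers phenylethylamine, and in primate brain MAOB protein is known from serotonin neurons and astrocytes while MAOA protein is known from catecholamine neurons. MAOA and MAOB are neighbours on 1 chromosome with 0 genes listed between them in the RefSeq table of the macaque assembly T2T-MMU8v2.0. The deposited files name no genome build, so no coordinates are given.

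In the labelled tissue 10 markers of serotonin neurons were looked up. Probe sets of 7 passed the filter on dim probe sets: SLC6A4 and SLC18A2, the transcription factors FEV, GATA3 and LMX1B, and the synthesis enzymes DDC and GCH1. The filter left out only the lowest 40% of all probe sets, and 7 of 10 cerebellum markers passed it too. Passing it therefore does not identify the tissue. The enzyme TPH1 read between 0.53 and 3.60 on the 12 arrays, at the floor of the array. No probe set was named for TPH2, the neuronal form that defines serotonin neurons, or for HTR1A, so the defining enzyme was not measured. TH, the marker enzyme of catecholamine neurons, read between 325 and 915, so catecholamine transcripts were in the tissue too. Estrogen plus progesterone array 1 and estrogen array 1 stood apart from the other 10 arrays: their 28S ribosomal control read 1354 and 841, against at most 179 elsewhere, and GAPDH, a control for RNA quality, read 2.05 and 2.45 times as high at its 3' end as at its 5' end, where no other array exceeded 1.46. Median intensities over all probe sets lay between 74.2 and 87.1, and the number of arrays limits the precision of each value.

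No member passed the adjusted threshold in a comparison, and the sizes and spreads of their differences follow. Between progesterone alone and placebo the log2 difference was −0.58 for SLC6A4 and −0.70 for the dimmer tested MAOA probe set. The brighter MAOA probe set gave 0.80 between estrogen alone and placebo, and 0.10 between both hormones and placebo. SLC18A2 and MAOB overlapped between all 4 groups. Differences were tested with limma, a linear model with a spread shared across probe sets, on log2 intensity with an adjusted p under 0.05 called.

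**Figure D1:**
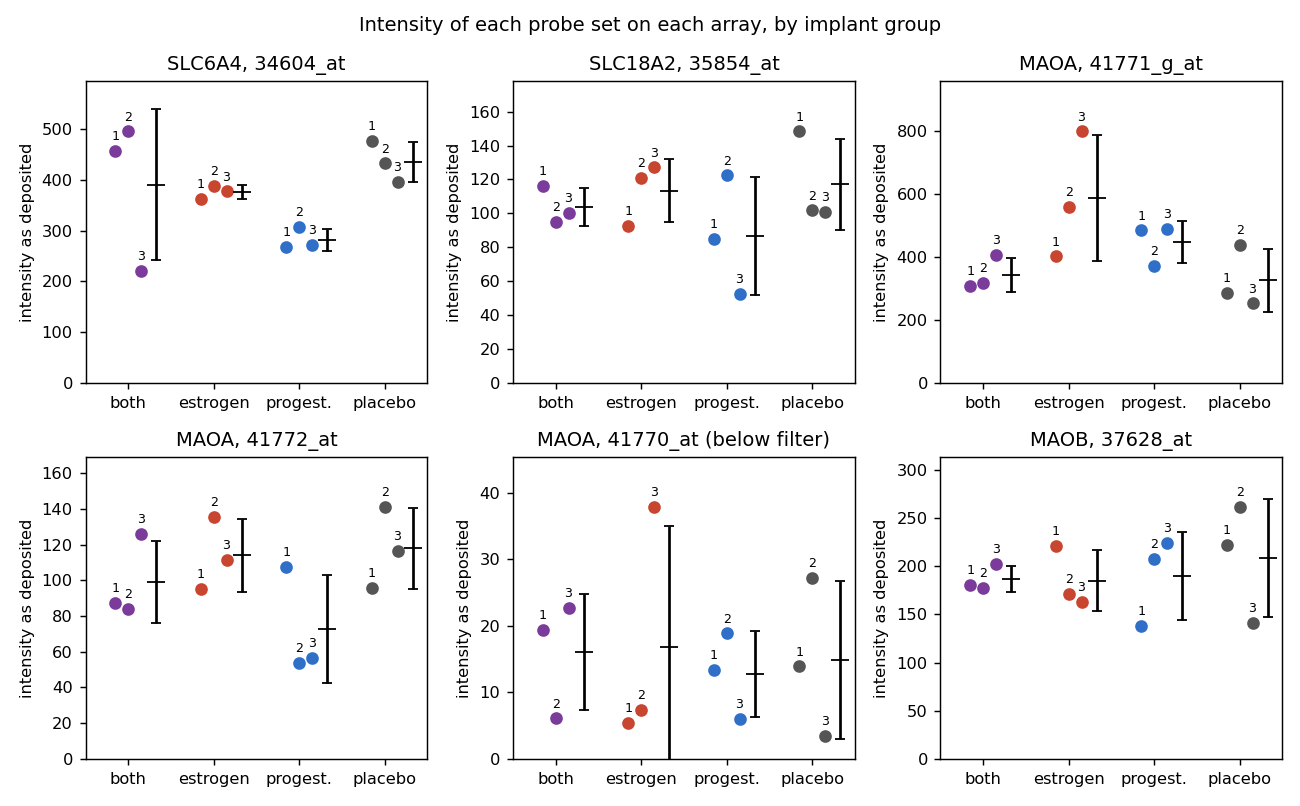
Intensity as deposited (linear scale from 0) of each of the 6 probe sets on each of the 12 arrays. Columns are both hormones, estrogen, progesterone and placebo, points carry the array number, and the bar to the right of each column is the mean ± SD of 3 arrays, cut off at 0 where it would go below. SLC6A4 on array 3 of both hormones (220) lies below every other array, and MAOA 41771_g_at on estrogen array 3 (799) lies above every other array.

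SLC6A4 was read by probe set 34604_at. Its intensity was 456, 495 and 220 with both hormones, 361, 388 and 377 with estrogen, 267, 307 and 272 with progesterone, and 476, 432 and 396 with placebo. The 3 progesterone arrays lay below all placebo arrays and below all estrogen arrays, and the 3 estrogen arrays lay below all placebo arrays by a narrower margin. With both hormones the arrays split: arrays 1 and 2 were at the top of the range and array 3 was the lowest of all 12. The coefficient of variation was 38.1% with both hormones, 3.61% with estrogen, 7.65% with progesterone and 9.18% with placebo. In the estrogen group 2.52% of the tested probe sets varied less than SLC6A4, and in the group with both hormones 87.0% did.

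On the log2 scale SLC6A4 differed by −0.58 ± 0.26 (SE) between progesterone and placebo, with a 95% confidence interval of −1.14 to −0.018. The limma p was 0.044 before adjustment and 0.585 after it. An exact permutation test of 3 arrays against 3 gave p = 0.1 (two-sided), the smallest it can give. Groups that do not overlap are common in these data: 16.8% of all tested probe sets separated progesterone from placebo, and 8.24% had an unadjusted p under 0.05. The difference was −0.19 ± 0.26 (interval −0.75 to 0.36) between estrogen and placebo, where 6.09% of probe sets separated, and −0.20 ± 0.26 (−0.76 to 0.35) between both hormones and placebo. These comparisons share the placebo arrays.

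By mean intensity the order of SLC6A4 was placebo, both hormones, estrogen, progesterone. Placebo and both hormones overlapped, as did both hormones and estrogen, and their gaps were smaller than the larger SD of the pair. Estrogen and progesterone, with means of 376 ± 13.6 and 282 ± 21.6 (SD, n = 3), were apart by more than either SD and did not overlap, as was true of 13.7% of tested probe sets. The difference of both hormones from progesterone alone was 0.37 ± 0.26 (limma adjusted p = 0.761), and from estrogen alone −0.01 ± 0.26 (adjusted p = 1). Array 3 of both hormones decides these values: without it the difference from progesterone was 0.73 (adjusted p = 0.354), that from estrogen was 0.35, and that from placebo was 0.15, with the sign turned. The interaction, which asks whether the 2 hormones together differ from the sum of their separate log2 differences, was 0.57 ± 0.36 (adjusted p = 0.970), and 0.92 without that array (adjusted p = 0.692).

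Values of other serotonin neuron markers stand beside those of SLC6A4. Summed over FEV, GATA3, LMX1B, DDC and GCH1, intensity was between 663 and 850 with both hormones, between 835 and 910 with estrogen, between 580 and 716 with progesterone and between 697 and 873 with placebo. The lowest sum with both hormones, 663, was that of array 3, which was also lowest in SLC6A4. Over all 7 markers, members included, the sums were 983 to 1423 with both hormones, 1289 to 1420 with estrogen, 904 to 1068 with progesterone and 1194 to 1432 with placebo. Progesterone and placebo did not overlap in the sum of 7 and did overlap in the sum of 5. As a mean of log2 values over the same 5 they did not overlap, at 6.83 to 7.01 with progesterone and 7.16 to 7.45 with placebo. That mean was 7.15 to 7.42 with both hormones and 7.30 to 7.55 with estrogen. Of the 7, 0 were called between progesterone and placebo by limma, 2 were lower at an unadjusted p under 0.05, against 8.24% of all probe sets at that p in either direction. These 2 were SLC6A4 itself and GATA3 (−0.62 ± 0.21, adjusted p = 0.504). The median log2 difference of the 7, members included, was −0.45, the value of SLC18A2 itself, against −0.0045 over all genes. The 5 markers that are not members gave −1.01 for LMX1B, −0.62 for GATA3, −0.35 for GCH1, −0.016 for DDC and 0.016 for FEV. How far the number of serotonin neurons in the dissected tissue enters the SLC6A4 values was not tested.

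SLC18A2 was read by probe set 35854_at. Its intensity was 116, 95.2 and 100.2 with both hormones, 92.6, 121 and 127 with estrogen, 84.9, 122 and 52.7 with progesterone, and 148, 102 and 101 with placebo. All 4 groups overlapped, the highest array was placebo array 1 and the lowest was progesterone array 3. By mean the order was placebo, estrogen, both hormones, progesterone, and no neighbours in it were apart by more than the larger SD. The log2 difference from placebo was −0.18 ± 0.28 with both hormones (interval −0.79 to 0.44), −0.05 ± 0.28 with estrogen (−0.67 to 0.56) and −0.45 ± 0.28 with progesterone (−1.06 to 0.17, limma adjusted p = 0.731). The last value was −0.15 without progesterone array 3, −0.25 without placebo array 1 and −0.72 without progesterone array 2. The coefficient of variation within the progesterone group was 40.3%, above that of 91.0% of the tested probe sets in this group.

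SLC18A2 and SLC6A4 were set against each other over the 12 arrays, since the same serotonin neurons make both. Pearson's r was 0.454 and Spearman's rho 0.350, with permutation p of 0.140 and 0.265. Over the 10 pairs of tested member probe sets the adjusted p was 0.831 for r and 0.946 for rho. With the group means taken out r was 0.233, and without the 2 arrays farthest from the median of SLC6A4 it was 0.537. Between the 2 transporters no relation was detectable with 12 arrays.

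The gene whose values were most like those of SLC18A2 was TH, tyrosine hydroxylase, the first enzyme of dopamine and noradrenaline synthesis. Of 5498 other genes with a tested probe set, it had the highest Pearson r over the 12 arrays, 0.942, with a Spearman rho of 0.839. Its intensity was 586, 615 and 550 with both hormones, 459, 593 and 915 with estrogen, 545, 704 and 325 with progesterone, and 842, 576 and 573 with placebo. Progesterone array 3 was lowest in both genes, and estrogen array 3 and placebo array 1 were the upper pair in both. The r was 0.938 with group means taken out, 0.945 without both arrays of high ribosomal signal, 0.842 without the 2 arrays farthest from the median of SLC18A2, and between 0.884 and 0.959 with each array left out in turn. The next genes were the fucosyltransferase FUT8 (r = 0.878) and RBBP4, a chromatin protein (r = 0.832). The pair of SLC18A2 and TH was picked from all genes by its r, so no p is given for it. Since TH was picked for the highest r, that of every other marker had to be lower. Among the other catecholamine neuron markers the r with SLC18A2 was 0.513 for ALDH1A1, 0.463 for DBH, and 0.420 and 0.256 for the probe sets of SLC6A2. Among the serotonin neuron markers LMX1B had an r of 0.622 with SLC18A2 (0.815 without both arrays of high ribosomal signal, 0.135 without the 2 arrays farthest from the median), and GCH1, FEV, GATA3 and DDC lay between 0.107 and 0.408. TH was read by a probe set with the suffix s, which in Affymetrix naming marks probes that can match several transcripts.

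**Figure D2:**
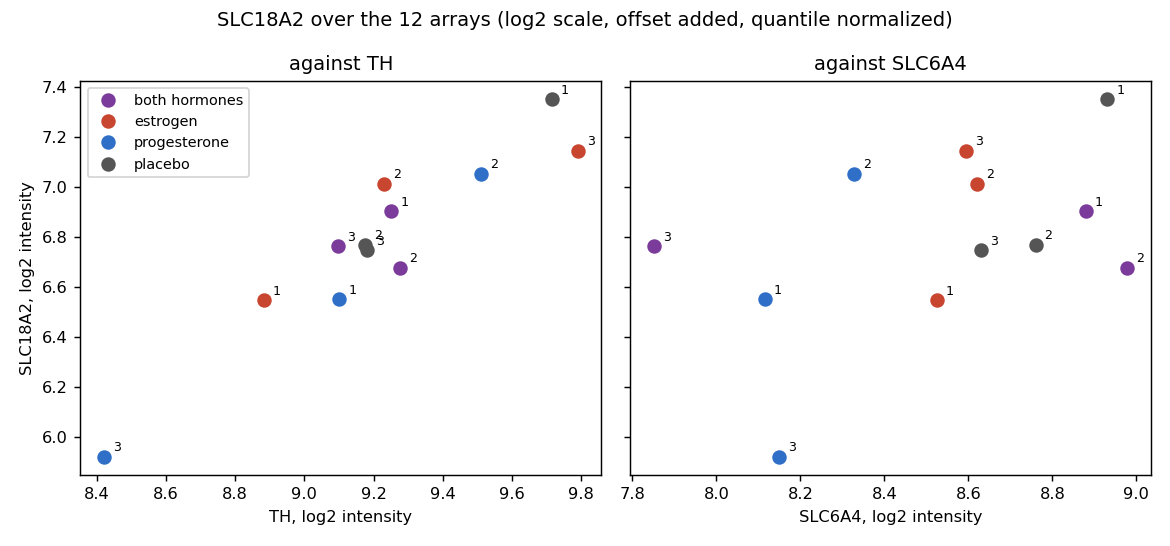
SLC18A2 against TH (left) and against SLC6A4 (right), both axes in log2 intensity after the offset and quantile normalization, with 1 point per array coloured by group and labelled by array number. The points lie along a line against TH (r = 0.942) and are scattered against SLC6A4 (r = 0.454). TH was picked as the highest r of 5498 genes and SLC6A4 was not picked by its r, so the panels are not like for like.

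MAOA was read by 3 probe sets. Probe sets 41771_g_at and 41770_at belong to the same sequence record in the probe table, and 41772_at to another. The brightest, 41771_g_at, read 309, 318 and 407 with both hormones, 402, 559 and 799 with estrogen, 485, 373 and 489 with progesterone, and 287, 439 and 253 with placebo. Estrogen arrays 2 and 3 lay above all placebo arrays, while estrogen array 1, one of the arrays of high ribosomal signal, lay inside the placebo range. By mean the order was estrogen, progesterone, both hormones, placebo. Neighbours in that order overlapped, and only progesterone and both hormones, with means of 449 ± 66.1 and 345 ± 54.2 (SD, n = 3), were apart by more than the larger SD.

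Between estrogen and placebo the log2 difference of 41771_g_at was 0.80 ± 0.26 (SE), with an interval of 0.23 to 1.37. By unadjusted p (0.0097) it ranked 39 of 7535, with 3.16% of all tested probe sets under 0.05, and 2.0% had a larger difference in either direction. The limma adjusted p was 0.9999, and the exact permutation test of 3 against 3 gave p = 0.2, above its smallest p of 0.1. The difference was 0.57 without estrogen array 3 and 1.04 once the 2 arrays of high ribosomal signal were left out (adjusted p = 0.853). With progesterone the difference from placebo was 0.49 ± 0.26 (adjusted p = 0.673), and with both hormones it was 0.10 ± 0.26 (adjusted p = 0.9994).

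The mean of this probe set with both hormones lay below that with either hormone alone. Both hormones differed from estrogen alone by −0.70 ± 0.26 (interval −1.27 to −0.13, unadjusted p = 0.020, limma adjusted p = 1) and from progesterone alone by −0.39 ± 0.26 (adjusted p = 0.75). The labels name no pairing of arrays. Over all tested probe sets, deviations from the group means had r of 0.13 to 0.41 between same-numbered arrays of both hormones and estrogen. Within the pairs numbered 1, 2 and 3 the log2 difference of 41771_g_at was −0.40, −0.80 and −0.90. On the normalized log2 scale no array of both hormones lay above any estrogen array, so no pairing could give a difference above 0 on that scale. Array 3 of both hormones and estrogen array 1 were tied there at 8.69. As deposited, the first (407) lay above the second (402). With the number as a block in these 2 groups the difference was −0.70 ± 0.17 (unadjusted p = 0.0096, limma adjusted p = 0.919), where 4.61% of all probe sets had an unadjusted p under 0.05 and 0 passed adjustment. That block was chosen after seeing the data. The pair numbered 1 is that of the arrays of high ribosomal signal. The interaction was −1.19 ± 0.37 (interval −2.0 to −0.39), with an unadjusted p of 0.0072, rank 59 of 7535, and a limma adjusted p of 0.914. Of all tested probe sets 4.99% had an unadjusted p under 0.05 for the interaction, and 2.87% for both hormones against estrogen. With each array left out in turn the interaction stayed between −1.43 and −0.96. An exact permutation test of the F statistic over all 369600 assignments of the 12 arrays gave p = 0.065, with 57.7% of the variance between groups. That p was 0.036 without both arrays of high ribosomal signal (25200 assignments), 0.081 with the values as deposited and 0.107 with arrays shifted to a common median.

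The second tested probe set of MAOA, 41772_at, read 87.5, 84.0 and 126 with both hormones, 95.01, 136 and 111 with estrogen, 107, 54.0 and 56.7 with progesterone, and 96.0, 141 and 117 with placebo. Progesterone arrays 2 and 3 were the lowest of the 12 and progesterone array 1 lay inside the placebo range. By mean the order was placebo, estrogen, both hormones, progesterone, and no neighbours in it were apart by more than the larger SD. The log2 difference from placebo was −0.28 ± 0.27 with both hormones, −0.07 ± 0.27 with estrogen and −0.70 ± 0.27 with progesterone. The last had an interval of −1.29 to −0.10, an unadjusted p of 0.026 and a limma adjusted p of 0.531, and was −0.99 without progesterone array 1 and −0.54 without progesterone array 2. The mean of the 2 differences that add progesterone was −0.45 ± 0.19 (adjusted p = 0.847), where 5.84% of tested probe sets had an unadjusted p under 0.05.

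The 2 tested probe sets of MAOA gave unlike values for the same implants, and the difference between them was not tested. With estrogen the difference from placebo was 0.80 for 41771_g_at and −0.07 for 41772_at, and with progesterone it was 0.49 and −0.70. Over the 12 arrays their r was 0.184 (rho 0.333, permutation p 0.565 and 0.287, adjusted p 0.962 and 0.946). With the group means taken out r was 0.579.

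The third MAOA probe set, 41770_at, read 19.4, 6.10 and 22.7 with both hormones, 5.37, 7.38 and 37.9 with estrogen, 13.4, 18.9 and 5.99 with progesterone, and 13.9, 27.2 and 3.46 with placebo. On 5 of the 12 arrays it was under the offset of 8.26, the pooled 10th percentile of all values, and it was left out by the filter. Estrogen array 3 was the highest and placebo array 3 the lowest array, as for 41771_g_at, with which it shares a sequence record. In a fit without the filter its log2 difference from placebo was 0.07 ± 0.54 with both hormones, −0.02 ± 0.54 with estrogen and −0.12 ± 0.54 with progesterone. With an SE of this size differences like those of 41771_g_at were not detectable.

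MAOB was read by probe set 37628_at. Its intensity was 181, 178 and 202 with both hormones, 221, 172 and 163 with estrogen, 138, 208 and 224 with progesterone, and 222, 261 and 141 with placebo. All groups overlapped, and the placebo arrays alone covered 141 to 261 of a whole range of 138 to 261. By mean the order was placebo, progesterone, both hormones, estrogen, and neighbours differed by less than the larger SD. The log2 difference from placebo was −0.12 ± 0.25 with both hormones (interval −0.67 to 0.42), −0.14 ± 0.25 with estrogen (−0.68 to 0.41) and −0.11 ± 0.25 with progesterone (−0.65 to 0.44). The exact permutation F test gave p = 0.942, with 4.24% of the variance between groups. With 3 arrays a group, differences of MAOB inside these intervals are not excluded.

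**Figure D3:**
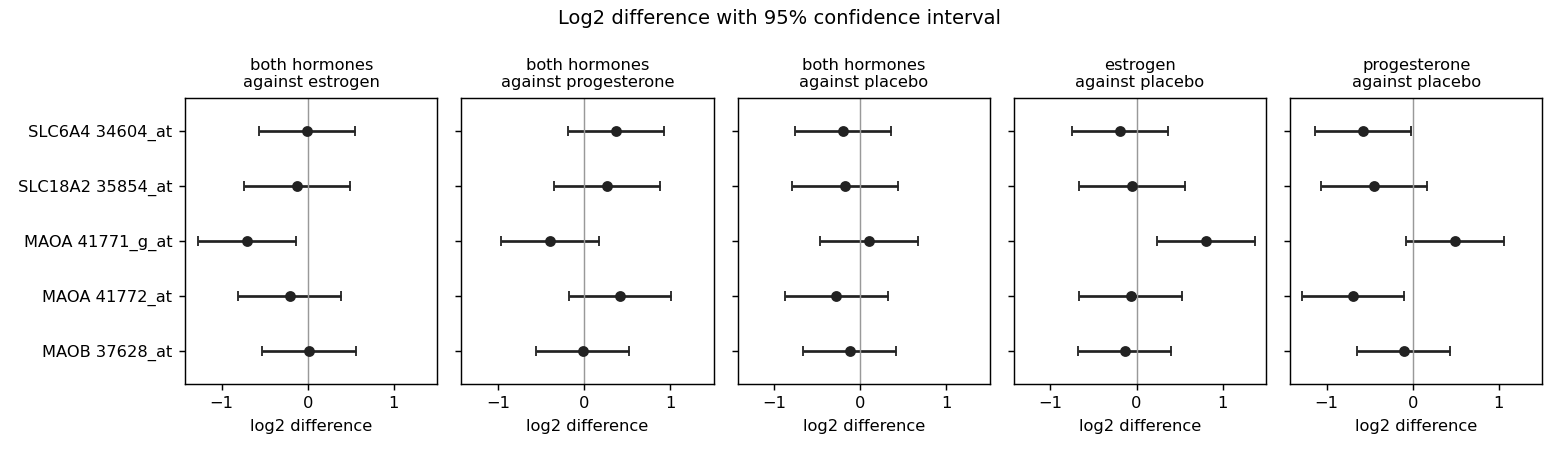
Log2 difference (points) with its 95% confidence interval (bars) from the limma fit for the 5 tested probe sets in 5 comparisons, with 0 as a vertical line. Intervals that leave out 0 are those of SLC6A4 and MAOA 41772_at between progesterone and placebo and of MAOA 41771_g_at between estrogen and placebo and between both hormones and estrogen, and none of these passed the threshold after adjustment.

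Set side by side, 1 of the 5 tested member probe sets was higher and 4 were lower in each of the 3 comparisons with placebo, which share the placebo arrays. Their median log2 difference was −0.18 with both hormones, −0.07 with estrogen and −0.45 with progesterone, and the median over all 7535 tested probe sets was −0.0031, −0.0047 and 0.0022 in the same order of comparisons. After adjustment 0 of 5 were called in each, against 0.0133%, 0% and 0.0398% of all tested probe sets. Before adjustment 0, 1 and 2 of 5 had p under 0.05, against 3.38%, 3.16% and 8.24% of all. The count of 2 with progesterone held in 13 of 23 alternative fits. It was 0 without progesterone array 3, and 1 without progesterone array 1 or 2, any 1 placebo array or any 1 estrogen array, or with the lowest 60% left out. The count of 1 with estrogen was 0 without estrogen array 3. Groups did not overlap for 0, 1 and 1 of 5, against 8.61%, 6.09% and 16.8% of all. For both hormones against estrogen alone 0 of 5 did not overlap (6.37% of all), and against progesterone alone 0 of 5 (16% of all). For the mean of the 2 differences that add estrogen, 0 of 5 had an unadjusted p under 0.05 (5.83% of all), and limma called 0 of 5 (0.0133% of all). For both hormones against progesterone alone, 0 of 5 were called after adjustment (0.0133% of all) and 0 before it (7.71% of all, 581 probe sets). Limma's moderated F test over the group means called 0 of 5 (0.0531% of all), and 1 of 5 before adjustment, MAOA 41771_g_at, against 5.79% of all. That count of 1 held in 12 of 22 alternative fits and was between 0 and 2 in the rest. It was 0 without placebo array 1 or 3, estrogen array 2 or 3, array 1 or 2 of both hormones or progesterone array 3, and 2 without array 3 of both hormones. Under the alternatives other than single arrays left out, the count also ranged from 0 to 2.

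**Figure D4:**
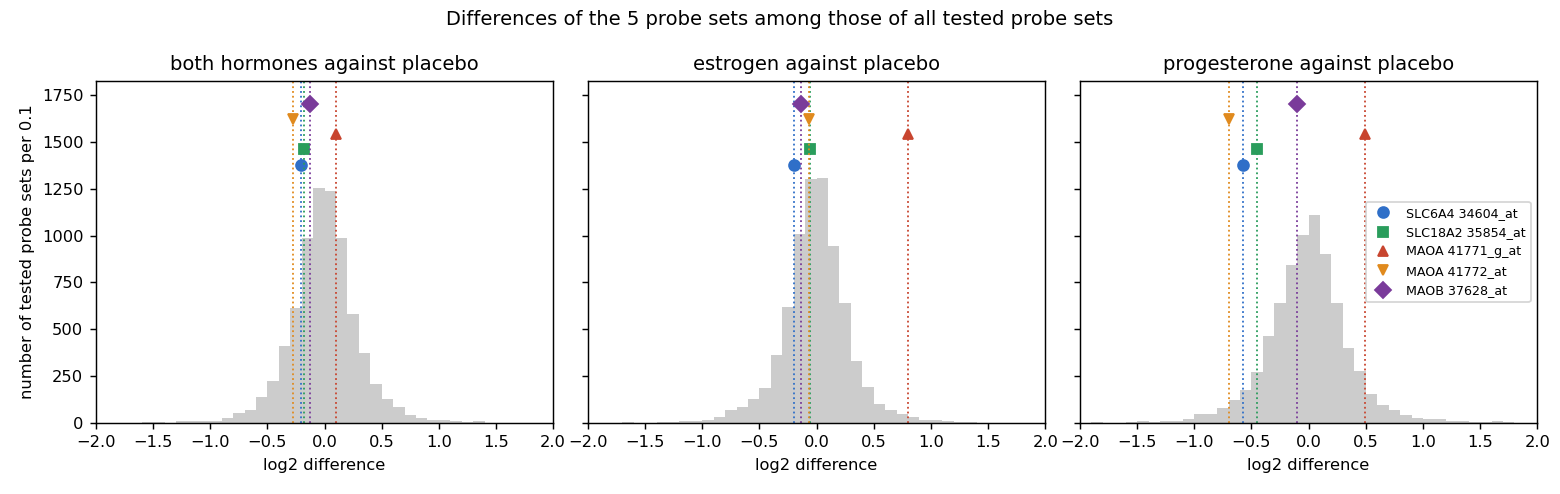
Distribution of log2 differences over all 7535 tested probe sets (grey bars, number per 0.1) for both hormones, estrogen and progesterone against placebo, with the 5 member probe sets as marks and dotted lines. MAOA 41771_g_at lies in the right flank with estrogen (0.80), and MAOA 41772_at (−0.70), SLC6A4 (−0.58) and SLC18A2 (−0.45) lie in the left flank with progesterone.

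Across arrays, genes most like each of the other members were ranked in the same way as for SLC18A2, and the r values are descriptions over 12 arrays that share group and preparation. For SLC6A4 they were PMVK, a kinase of the mevalonate pathway (r = 0.856), the heat shock factor binding protein HSBP1 (0.845) and the homeobox gene PBX3 (0.843). For MAOA 41771_g_at they were RAB6B, a small GTPase of Golgi transport in neurons (0.856), INSIG2, a regulator of sterol synthesis (0.809), and GAP43, a protein of growing axons (0.800). For MAOB they were the ubiquitin ligase UBE3C (0.894), the phosphoinositide kinase PIP4K2A (0.811) and BCRP3 (0.795). With group means taken out these values lay between 0.747 (GAP43) and 0.896 (UBE3C). For MAOA 41771_g_at the r with DDC, the enzyme that makes serotonin and dopamine from their precursors, was 0.680 (rho 0.700, permutation p 0.0141 and 0.0136) and did not pass adjustment over the 50 pairs of member and marker probe sets (adjusted p 0.205 and 0.276). Without the 2 arrays farthest from the median of MAOA it was 0.541. The r of SLC6A4 with the 5 other serotonin markers lay between −0.181 (DDC) and 0.583 (GATA3), with adjusted p of at least 0.267.

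Genes around the members were taken as 7 lists, and limma called 0 genes of each list in the 3 comparisons with placebo. In the synthesis of serotonin and of its cofactor tetrahydrobiopterin, 6 of 8 genes were measured. The median log2 difference from placebo was 0.10 with both hormones, 0.04 with estrogen and 0.06 with progesterone. GCH1, the first enzyme of the cofactor pathway, read 119 ± 4.70 with progesterone and 157 ± 32.7 with placebo (SD, n = 3). Its groups did not overlap, as was true of 16.8% of all tested probe sets, and the difference was −0.35 ± 0.25 (limma adjusted p = 0.773). PTS, the next enzyme, gave 0.23 with both hormones, 0.23 with estrogen and 0.29 with progesterone. DDC gave −0.26 ± 0.25 and SPR, the last enzyme of the cofactor pathway, 0.73 ± 0.72 with both hormones, and PCBD1 gave −0.10 with estrogen.

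Of the serotonin neuron transcription factors 7 of 9 were measured, with a median difference from placebo of −0.06 with both hormones, −0.05 with estrogen and −0.15 with progesterone. POU3F2, a POU domain factor of neural development, read 111 ± 9.97 with both hormones, 89.3 ± 5.30 with estrogen, 70.8 ± 12.1 with progesterone and 129 ± 10.05 with placebo. Each hormone group lay below placebo without overlap, by −0.25 ± 0.16, −0.51 ± 0.16 and −0.80 ± 0.16 in that order, with limma adjusted p of 0.9994, 0.9999 and 0.178. Of all tested probe sets 8.61%, 6.09% and 16.8% did not overlap in these comparisons, which share the placebo arrays. GATA2 gave −0.62 with progesterone in 1 probe set, and its other tested probe sets gave −0.45 and −0.15. NKX2-2, a homeodomain factor of the ventral neural tube, gave −0.21 with both hormones in 1 probe set and −0.42 with estrogen in the other. With progesterone these probe sets gave 0.41 and 0.25, the other way.

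The serotonin receptors had 8 of 13 genes measured, with medians of −0.03 with both hormones, −0.01 with estrogen and −0.18 with progesterone. HTR3A, the ion channel receptor, gave −0.77 ± 0.40 with both hormones and −0.70 ± 0.40 with estrogen, and HTR7, which raises cyclic AMP, gave −0.59 ± 0.30 and −0.48 ± 0.30, with adjusted p of at least 0.9994 for each. With progesterone HTR6 gave −0.54 ± 0.36 (adjusted p = 0.747) and HTR2C −0.62 ± 0.18 (adjusted p = 0.393). Among other monoamine transporters only SLC6A2, the noradrenaline transporter, was measured (1 of 7), and its probe sets gave −0.10 and −0.51 with progesterone. Of 11 genes acting after monoamine oxidase or on neighbouring steps, 4 were measured. Medians were −0.14 with both hormones, −0.22 with estrogen and 0.06 with progesterone. ALDH1A1, an aldehyde dehydrogenase also known from dopamine neurons, gave −0.63 ± 0.35, −0.43 ± 0.35 and −0.58 ± 0.35 in that order, with placebo array 1 far above the other arrays at 1468. ALDH2, the mitochondrial aldehyde dehydrogenase, gave −0.27 with both hormones and −0.26 with estrogen, and the sulfotransferase SULT1A1 gave 0.12 with progesterone.

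Of 15 genes whose proteins bind or phosphorylate SLC6A4, 10 were measured, with medians of 0.0075 with both hormones, 0.0090 with estrogen and 0.03 with progesterone. PRKCA, the protein kinase C alpha gene, gave −0.56, −0.55 and −0.55 in 1 probe set and 0.13, 0.11 and 0.23 in the other tested probe set. FLOT1, a lipid raft protein, gave 0.56 and 0.64 with progesterone in its 2 tested probe sets (adjusted p = 0.699 for the first). The integrin gene ITGB3 gave 0.44 ± 0.28 with both hormones in its 1 tested probe set, and PRKCB, a protein kinase C gene, gave 0.22 with estrogen in 1 of 3. Of 8 factors known from work on the promoters of the monoamine oxidase genes, 5 were measured, with medians of −0.13 with both hormones, 0.13 with estrogen and −0.08 with progesterone. KLF11, known to bind the MAOA and MAOB promoters in human cells, read 88.6 ± 17.5 with progesterone and 51.4 ± 11.9 with placebo in 1 probe set (0.68 ± 0.32, adjusted p = 0.622), and its other probe set gave −0.18 with progesterone and −0.28 with both hormones. EGR1, an immediate early factor, gave 0.78 ± 0.40 with progesterone (adjusted p = 0.665), and SP3 gave −0.31 ± 0.23 with both hormones and −0.18 with estrogen. FOXO1, a forkhead factor, gave 0.13 with estrogen.

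Markers of other cells stand beside these values. Summed over 10 astrocyte markers, intensity was 15187 to 16865 with both hormones, 14839 to 16634 with estrogen, 16387 to 17048 with progesterone and 13281 to 14767 with placebo, and the placebo sums did not overlap the others. These sums are carried by the brightest probe sets, ALDOC and SLC1A2. As a mean of log2 values over the same 10 markers the groups overlapped, at 9.14 to 9.29 with both hormones, 9.11 to 9.33 with estrogen, 9.08 to 9.15 with progesterone and 9.05 to 9.25 with placebo. Below placebo were 7 of the 10 with both hormones, 3 with estrogen and 4 with progesterone, where the median difference was 0.08. With progesterone 3 had an unadjusted p under 0.05, against 8.24% of all probe sets, and all 3 were below placebo: SOX9 at −0.80, GLUL at −0.45 and GFAP at −0.42 (limma adjusted p of at least 0.177). The other way, 6 of the 10 were above placebo with progesterone, among them SLC1A2 at 1.16 and S100B at 0.29. Over 4 catecholamine markers the sums were 1287 to 1522, 1275 to 1889, 1146 to 1656 and 1464 to 2599 in the same order of groups. Over 7 cerebellum markers they were 3061 to 3989, 3497 to 4815, 3710 to 4508 and 2941 to 4150. As a mean of log2 values these 7 read 8.72 on estrogen array 2 and 8.30 on array 2 of both hormones, and 7.81 to 7.97 on the other arrays. With estrogen 6 of the 7 were above placebo, 2 of them at a limma unadjusted p under 0.05 (3.16% of all probe sets), and 0 were called. The part of cell makeup in the differences of the monoamine oxidase probe sets was not tested.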

How the data were processed

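The authors deposited linear intensity values for 12625 probe sets and 12 arrays. From the values, the authors had scaled each array to a trimmed mean of about 200.1. The software that summarised the probes is not given in the sources used here. Groups came from the titles, except for progesterone, whose titles carry the codes EP1 to EP3 and whose source names, P1 to P3, were used. After 67 control probe sets were left out, intensities became log2(intensity + 8.26), the offset being the pooled 10th percentile, and were quantile normalized. The lowest 40% by mean (5023) were left out and 7535 were tested with limma 3.58.1 (R 4.3.3): group means over all 12 arrays, two-sided, Benjamini-Hochberg at 0.05 over all tested probe sets. Fold changes on this scale understate those of dim probe sets. Simulated data were used to test this fit. Permutation tests used scipy 1.17.1 and numpy 2.4.6, with all assignments or 100000 resamples.

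Every member probe set was named. From each gene list, the 2 genes with the smallest unadjusted p in each comparison with placebo were named, and for each member the 3 most alike genes. Members and lists were chosen with earlier results of these data known. Same-numbered arrays had a median r of 0.012 between their deviations from the group means (18 pairs, range −0.22 to 0.41). Of the 6 pairs of groups, only in that of both hormones and estrogen was r over 0.1 in each of 3 pairs (0.13 to 0.41). That comparison was refitted with the number as a block, chosen after seeing the data, and no pairing was used elsewhere. Alternatives covered the scaling, offset, filter, variance model, array weights, a replicate block, both arrays of high ribosomal signal, the groups fitted and each array left out.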

Additional observations from a re-analysis of the deposited data

How the results depend on the processing

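Over the 9 tests of the design and their 204 alternative fits in all, limma called 0 member probe sets in each. Of 742 alternative values of the 33 single log2 differences, 708 kept their sign, 34 turned it, and the lowest adjusted p was 0.213 (MAOA 41772_at with progesterone, array weights). The cause of the turned signs was not tested. Turned values with array weights were 0.18 for SLC18A2 and 0.039 for MAOA 41772_at with estrogen against placebo, and for MAOB 0.083 with progesterone and 0.032 with both hormones. Without both arrays of high ribosomal signal they were 0.12 for SLC18A2 and 0.094 for MAOA 41772_at with estrogen, and 0.011 for MAOB with both hormones against progesterone, where the values as deposited gave 0.0030. With arrays shifted to a common median, MAOB gave −0.0027 for both hormones against estrogen.

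With each array left out in turn, the results that turned sign had these ranges. Against placebo they were −0.18 to 0.14 for SLC18A2, −0.20 to 0.094 for MAOA 41772_at and −0.39 to 0.034 for MAOB with estrogen, −0.36 to 0.11 for MAOB with progesterone, and −0.41 to 0.15 for SLC6A4, −0.28 to 0.023 for SLC18A2, −0.066 to 0.32 for MAOA 41771_g_at and −0.38 to 0.048 for MAOB with both hormones. For both hormones against estrogen they were −0.21 to 0.35 for SLC6A4, −0.30 to 0.00082 for SLC18A2 and −0.053 to 0.12 for MAOB. For both hormones against progesterone they were −0.022 to 0.55 for SLC18A2 and −0.23 to 0.11 for MAOB, and for the interaction −0.094 to 0.38 for MAOB. The exact permutation p of MAOA 41771_g_at was between 0.064 and 0.107 under the other alternatives run for it, and 0.036 with the 2 arrays of high ribosomal signal left out. Correlations near 0 turned too: that of SLC18A2 with MAOB was 0.0062 with a common median and 0.0081 without the high ribosomal arrays, and that of MAOA 41771_g_at with MAOB was −0.049 as deposited and −0.0077 without those arrays.

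Over all probe sets, the 3 calls for progesterone against placebo became 1 as deposited or with the lowest 60% left out, 5 with no filter, 6 with array weights, 11 without the high ribosomal arrays and 0 with only the groups compared. With each array left out in turn they ranged from 0 to 6: 0 without placebo array 1 or 2, estrogen array 3, array 2 of both hormones or any 1 progesterone array, and 6 without estrogen array 1. With a replicate block they became 0, and 0 member probe sets were called. In the fit of both hormones and estrogen alone with that block, the probe sets at an unadjusted p under 0.05 were 347, against 216 over all arrays without it, and the call of no member changed.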
